A study of Mus musculus with 4 samples.

Results

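The actin and tropomyosin genes of the mouse were followed in cultured muscle cells treated with EDA-A2. They comprise 10 genes of the 53647 in the count tables, 6 actins (Acta1, Actc1, Acta2, Actg2, Actb and Actg1) and 4 tropomyosins (Tpm1 to Tpm4). They were chosen by gene family, with earlier results of these data known. By the known place of their products they were divided into sarcomeric (Acta1, Actc1, Tpm1 and Tpm2), cytoskeletal (Actb, Actg1 and Tpm4) and smooth muscle (Acta2 and Actg2) genes. Tpm3 was kept apart because it makes both a slow muscle form and cytoskeletal forms. Counts per gene cannot separate the forms that alternative promoters and splicing make from Tpm1 to Tpm4. The sarcomeric class is therefore not purely sarcomeric, since Tpm1 makes cytoskeletal forms too. The question was whether the sarcomeric and the cytoskeletal members differed in the same way between treated and control cells.

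Primary myoblasts, the dividing precursors of muscle fibres, came from limb muscles of wild-type pups aged 2 to 3 days and were fused into multinucleated myotubes in culture. Control myotubes and myotubes given recombinant EDA-A2, the ligand of the receptor EDA2R, at 250 ng/mL for 24 h were sequenced in 2 libraries each. Both conditions were harvested 72 h after the start of differentiation, so treatment began at 48 h. Nothing in the labels says that the 2 libraries of a condition came from separate animals or cultures, so p-values measure only the spread between these samples, which may be technical.

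Actin polymerises into filaments, and tropomyosin is a coiled coil that lies along them and sets which other proteins can bind. In the sarcomere, the contractile unit of striated muscle, the thin filament is made of actin, tropomyosin and the troponin complex, and calcium bound to troponin shifts tropomyosin to let myosin pull. Young muscle uses the cardiac gene Actc1 and, at first, the smooth muscle gene Acta2 beside the skeletal gene Acta1, while Actb and Actg1 build the cortical cytoskeleton of every cell.

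The libraries were of nearly equal depth, with 29444155 to 29746863 counts on genes. A count of 0 allows up to 3 counts, or 0.101 to 0.102 CPM (counts scaled by library size) here, a limit that covers counting error only, since the pairs carry no molecular identifiers. Counts were brought to the mean TMM-adjusted library size with edgeR and are then called normalized counts, and 15173 genes passed the filter on low counts and were tested. The muscle identity of the cultures was checked with 7 myotube markers, all of which were detected in every library, Myog at 30192 to 36520 counts and Mymk at 13933 to 15276 counts. The 7 markers together held 472724 and 493623 normalized counts in control and 362364 and 372542 in EDA-A2-treated myotubes. Of the 7, 2 fell (adjusted p under 0.05 in edgeR), the myosin heavy chains Myh3 and Myh8, beside 2.13% of all genes tested.

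Because the members are close copies of each other, the first 60 coding bases of the 6 actins show what the reads had to tell apart. The sequences are read from the GENCODE M39 canonical transcripts on GRCm39, 5′ to 3′. Capitals mark bases that differ from Acta1 or have no partner in it when the coding sequences are aligned, and gaps are not drawn.
Acta1: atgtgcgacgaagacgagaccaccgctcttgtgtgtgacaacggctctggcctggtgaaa
Actc1: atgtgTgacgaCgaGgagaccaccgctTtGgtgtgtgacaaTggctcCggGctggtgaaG
Acta2: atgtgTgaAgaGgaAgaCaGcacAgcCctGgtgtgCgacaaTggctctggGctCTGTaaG
Actg2: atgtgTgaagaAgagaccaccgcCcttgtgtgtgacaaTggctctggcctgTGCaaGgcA
Actb: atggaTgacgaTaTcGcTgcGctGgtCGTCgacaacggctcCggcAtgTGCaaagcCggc
Actg1: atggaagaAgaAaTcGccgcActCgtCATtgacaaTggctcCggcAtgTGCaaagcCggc

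Over the whole coding sequence, Acta1 and Actc1 had the same base at 86.2% of positions and Actb and Actg1 at 88.7% (identical bases over the length of the longer sequence), the highest value among the 15 actin pairs. The lowest actin values were 81.5%, for Actg1 against Actc1 and against Acta2. Among the tropomyosins, Tpm1 and Tpm2 reached 78.5%, Tpm3 and Tpm4 73.4%, and the other pairs 64.2% to 65.7%. Despite this likeness, no stretch of 100 bases in the canonical transcript of any member occurred exactly in that of another member, so an exact read of that length can be assigned between members.

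Other copies in the genome are a different matter, since reads that mapped to more than 1 place were not counted. Of the 100-base windows of Actg1, 82.6% were found unaltered on either strand in another gene's transcript or elsewhere in the genome, most often in Gm70496, and of those of Tpm3 38.5% were found in Tpm3-rs7. The share was 10.1% for Tpm4, 7.51% for Acta2 and 1.1% for Actb. For Acta1, Actc1, Actg2, Tpm1 and Tpm2 it was 0. In Acta2 the windows are not another copy but the stretch where Stambpl1 overlaps it on the opposite strand. The counts of Actg1 and Tpm3 are therefore uncertain as levels. The reads came in pairs, so these shares of single windows do not give the share of pairs left uncounted. On the opposite strand, Actg1, Acta1, Tpm1 and Tpm4 also overlap long noncoding genes, over 10.9%, 5.63%, 4.58% and 3.52% of their exons. Acta2 overlaps the protein-coding Stambpl1 there over 9.33% of its exons. On the same strand, Actg1 overlaps the microRNA genes Mir6935 and Gm55891, over 2.13% and 2.79% of its exons.

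**Figure D1:**
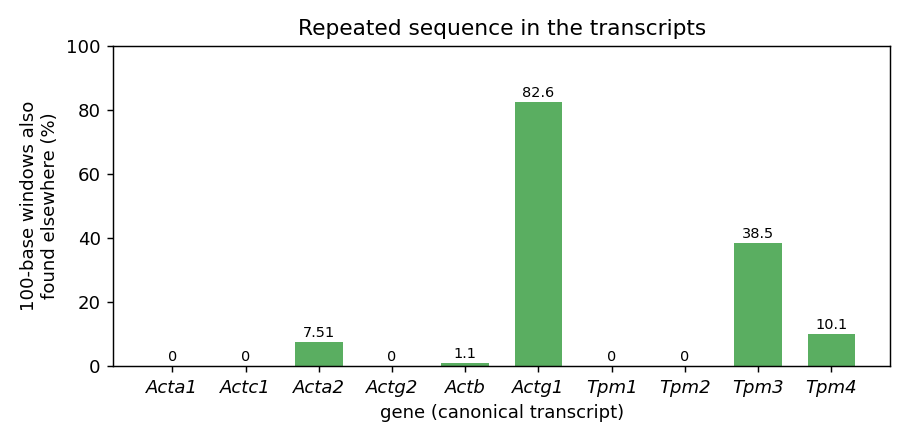
Share of 100-base windows of each member's canonical transcript, in percent, that occur exactly in another gene's transcript or elsewhere in GRCm39. Actg1 stands highest at 82.6%, Tpm3 follows at 38.5%, and 5 members are at 0.

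Both striated muscle actins fell after EDA-A2, and they were the only members that passed the test. Acta1 fell by 30.2% and Actc1 fell by 27.7%. Acta1 (ENSMUSG00000031972, chromosome 8 from 124618501 to 124623661 of GRCm39, minus strand) encodes skeletal alpha-actin, the main actin of adult muscle fibres. It had 186033 and 173942 normalized counts in control and 119001 and 132306 in EDA-A2-treated myotubes. Both treated libraries lay well under both controls, and the gap between the conditions was wider than that between replicates. The mean fell from 179987 ± 8549 to 125653 ± 9408 normalized counts (SD, n = 2 each). Its log2 fold change was -0.52 (95% interval -0.69 to -0.35, standard error 0.08, adjusted p = 0.00104 by edgeR's quasi-likelihood test, Benjamini-Hochberg adjusted). Acta1 was the gene with the sixth most counts in both control libraries and in EDA-A2 replicate 2, and the seventh in EDA-A2 replicate 1.

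Actc1 (ENSMUSG00000068614, chromosome 2 from 113876266 to 113884043, minus strand) encodes cardiac alpha-actin, which skeletal muscle uses while it forms. It had 75318 and 71133 normalized counts in control and 51095 and 54869 in EDA-A2-treated myotubes. As for Acta1, the conditions did not overlap, and EDA-A2 replicate 1 was the lowest library. The mean fell from 73225 ± 2959 to 52982 ± 2669 normalized counts (SD, n = 2 each), and the log2 fold change was -0.47 (95% interval -0.62 to -0.31, standard error 0.07, adjusted p = 0.00129 by the same edgeR test). The ratio of Acta1 to Actc1 counts was 2.47 and 2.45 in control and 2.33 and 2.41 in EDA-A2-treated myotubes, so the 2 genes kept nearly the same proportion.

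Both calls depended on the control libraries and on the filter. Without control replicate 1 the adjusted p was 0.288 for Acta1 and 0.288 for Actc1, and without control replicate 2 it was 0.191 and 0.189, in edgeR fits that called 0 of all genes and assume that the lone control varies like the treated libraries. The log2 fold changes in those fits were -0.47 and -0.57 for Acta1 and -0.42 and -0.51 for Actc1, with unadjusted p-values of 0.00841 and 0.00391 and of 0.00545 and 0.00263 by the same test. With no filter, when 25545 genes were tested, the adjusted p was 0.0596 for Acta1 and 0.0564 for Actc1. The unadjusted p-values by the same test were also larger there, at 2.44e-04 and 2.08e-04, against 9.35e-06 and 1.32e-05 in the main fit.

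In total, 9 of the 10 members passed the filter, and 2 of these 9 were called lower and 0 higher. Over all genes tested, 2.13% were called lower, 2.45% higher and 4.57% in either direction. Normalized counts of the 2 conditions did not overlap for 8 of the 9 members, against 45% of all genes tested, and Actg1 was the exception. Of the 9 log2 fold changes 6 were negative and 3 positive, with a median of -0.08, beside 50.5% negative and a median of -0.002 over all genes tested. For the 4 sarcomeric members the median was -0.33 and all 4 values were negative, and for the 3 cytoskeletal members it was 0.02 with 1 negative value. The sarcomeric median lies between the called actins Acta1 (-0.52) and Actc1 (-0.47) and the tropomyosins Tpm1 (-0.19) and Tpm2 (-0.07), which did not pass. Tpm2 was no lower than the cytoskeletal Actb (-0.08).

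**Figure D2:**
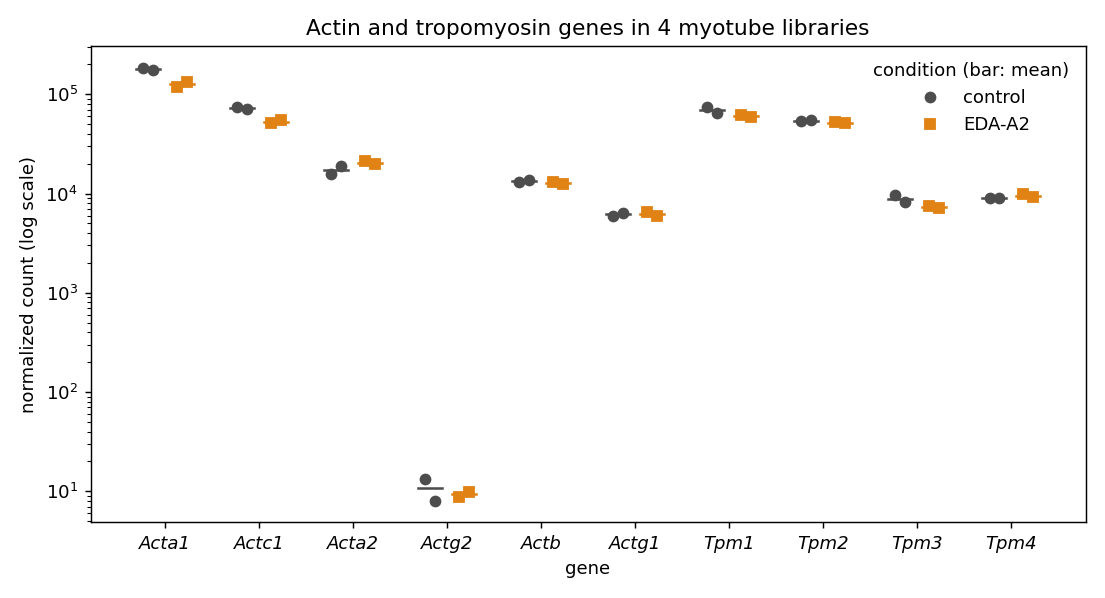
Normalized counts (log scale) of the 10 genes in each library, control as circles and EDA-A2 as squares, with bars at the means of 2 libraries. Acta1 and Actc1 show the widest gaps between conditions, and Actg2 lies near 10 counts.

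The sarcomeric tropomyosins did not pass the test. Tpm1 (ENSMUSG00000032366, chromosome 9 from 66929870 to 66956953, minus strand) encodes alpha-tropomyosin of fast and cardiac muscle, and other promoters and exons of the same gene make cytoskeletal forms. Its normalized counts were 73795 and 65231 in control and 62229 and 59405 after EDA-A2. The conditions did not overlap, but the 2 controls were farther apart than control replicate 2 was from either treated library. The log2 fold change was -0.19 (95% interval -0.36 to -0.03, adjusted p = 0.218 by edgeR's quasi-likelihood test, Benjamini-Hochberg adjusted), and it was -0.099 without control replicate 1.

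Tpm2 (ENSMUSG00000028464, chromosome 4 from 43514697 to 43524949, minus strand) encodes beta-tropomyosin, which pairs with the alpha form on the thin filament. It had 53615 and 54539 normalized counts in control and 52177 and 51129 in EDA-A2-treated myotubes. All 4 libraries lay within a narrow band, with a log2 fold change of -0.07 (95% interval -0.21 to 0.08, adjusted p = 0.734 by the same edgeR test). The interval of Tpm2 lies wholly above that of Acta1, though the difference between the 2 genes was not itself tested.

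Tpm3 (ENSMUSG00000027940, chromosome 3 from 89979949 to 90008226, plus strand) makes the slow muscle tropomyosin and several cytoskeletal forms, which counts per gene cannot separate. Its normalized counts were 9633 and 8207 in control and 7444 and 7229 after EDA-A2, a change of -17.8% in the mean. Control replicate 1 stood apart from the other 3 libraries. At -0.28 on the log2 scale (95% interval -0.45 to -0.11, standard error 0.08) the adjusted p was 0.0557 by edgeR's quasi-likelihood test, just outside the threshold of 0.05. The DESeq2 Wald test (adjusted p 0.0416) and a replicate block in edgeR (adjusted p 0.0149) called Tpm3 lower, while the adjusted p was 0.354 with no filter and 0.127 when libraries were scaled by their totals. Without control replicate 1 the log2 fold change was -0.16 (adjusted p 0.357 in edgeR). Its repeated sequence applies to all of these values.

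The smooth muscle actin Acta2 was the member with the most positive estimate. Acta2 (ENSMUSG00000035783, chromosome 19 from 34217737 to 34232990, minus strand), which also marks myofibroblasts and early myotubes, had 15717 and 19186 normalized counts in control and 21210 and 19695 in EDA-A2-treated myotubes. The conditions did not overlap, but control replicate 2 lay nearer to both treated libraries than to control replicate 1. The log2 fold change was 0.23 (standard error 0.09, 95% interval 0.04 to 0.41, adjusted p = 0.188 by the edgeR test), and it did not pass under any scaling, filter or test tried. The estimate was 0.094 without control replicate 1 and 0.38 without control replicate 2.

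Actg2 (ENSMUSG00000059430, chromosome 6 from 83489887 to 83513551, minus strand), the enteric smooth muscle actin, had only 13 and 8 counts in control and 9 and 10 after EDA-A2. It failed the filter and was not tested, and its conditions overlapped. 

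The cytoskeletal members differed little between the conditions. Actb (ENSMUSG00000029580, chromosome 5 from 142888870 to 142892509, minus strand), which encodes beta-actin, a common reference gene in muscle work, had 13097 and 13812 normalized counts in control and 12972 and 12549 after EDA-A2. Both treated libraries were below both controls by a small margin. The log2 fold change was -0.08 (95% interval -0.22 to 0.07, adjusted p = 0.683 by the edgeR test).

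Actg1 (ENSMUSG00000062825, chromosome 11 from 120236512 to 120239617, minus strand), the gamma form of cytoplasmic actin, had 5913 and 6433 normalized counts in control and 6530 and 5954 in treated myotubes. The conditions overlapped, and the log2 fold change was 0.02 (95% interval -0.14 to 0.17, adjusted p = 0.954 by the edgeR test). The sign was not stable, since the estimate became -0.04 when control replicate 1 was left out and -0.05 when EDA-A2 replicate 1 was.

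Tpm4 (ENSMUSG00000031799, chromosome 8 from 72884018 to 72906987, plus strand), a tropomyosin of stress fibres and of membrane systems in muscle, had 9115 and 9129 normalized counts in control and 9821 and 9136 after EDA-A2. The controls were almost equal, and EDA-A2 replicate 2 was hardly above them. The log2 fold change was 0.06 (95% interval -0.09 to 0.20, adjusted p = 0.791 by the edgeR test). Over Actb, Actg1 and Tpm4 the intervals of the log2 fold change reach down to -0.22 and up to 0.20, so changes of that size could not be told from 0.

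**Figure D3:**
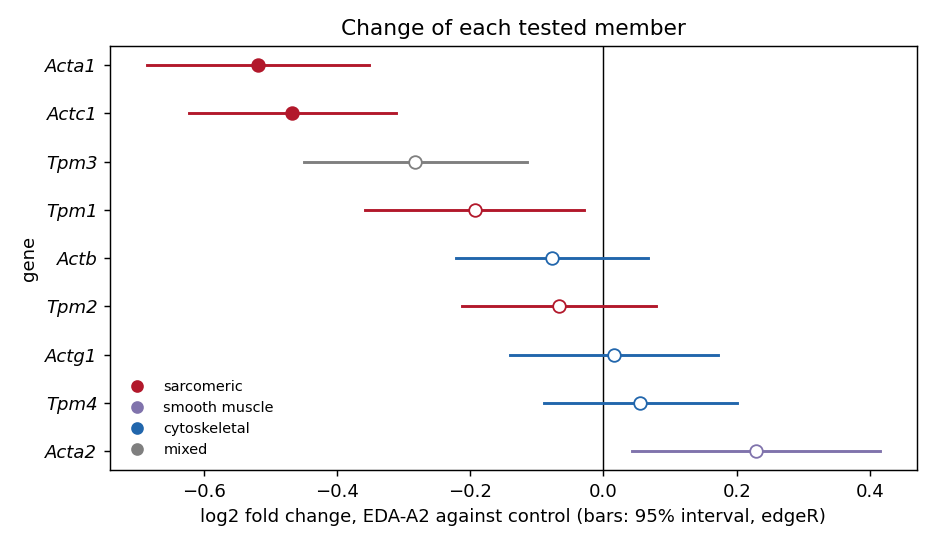
Log2 fold change of the 9 tested members with its 95% interval from edgeR, coloured by class, and filled where the adjusted p was under 0.05. Only Acta1 (-0.52) and Actc1 (-0.47) are filled, and Acta2 (0.23) lies at the other end.

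The makeup of the actin pool was compared per library, on counts divided by the length of each gene's exons in kb, since genes of unequal length can be compared only in this way. The striated actins Acta1 and Actc1 held 84.8% and 82.2% of this pool in control and 75.6% and 78.5% in EDA-A2-treated myotubes. The smooth muscle actins, almost wholly Acta2, held 6.55% and 8.27% in control and 12.2% and 10.6% after EDA-A2. The cytoplasmic actins Actb and Actg1 held 8.67% and 9.55% in control and 12.2% and 10.9% after EDA-A2.

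Striated actin was thus the largest class in every library, and its share was lower in both treated libraries than in both controls, with means of 83.5% ± 1.84 and 77.0% ± 2.02 (SD, n = 2 each), a difference of -6.45 percentage points. No test was made, because an exact two-sided permutation of 2 libraries against 2 cannot give a p-value under 0.333. In all 3 classes control replicate 2 was the control nearer to the treated libraries and EDA-A2 replicate 2 the treated library nearer to the controls. Shares of a pool are tied to each other, so the higher shares of Acta2, Actb and Actg1 go with the lower counts of Acta1 and Actc1 and do not show that their own counts changed. The share of striated actin in control was 88.9% ± 1.26 (SD, n = 2) when the canonical transcript of each gene gave the length, and the difference was then -4.60 points.

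**Figure D4:**
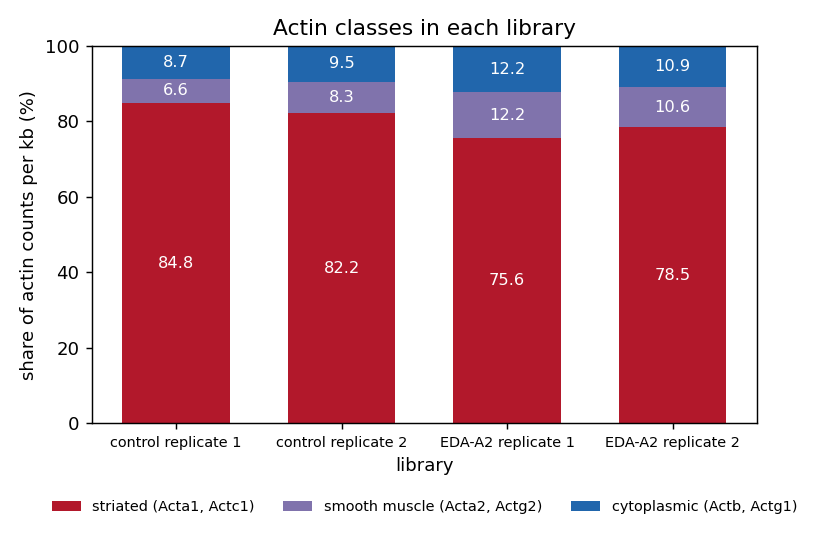
Share of actin counts per kb of exon length, in percent, held by the striated, smooth muscle and cytoplasmic genes in each of the 4 libraries. Striated actin takes 82.2% to 84.8% in control and 75.6% to 78.5% after EDA-A2.

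Ratios of raw counts within a library, which need no scaling between libraries, were read for single pairs of genes. Acta1 had 14.2 and 12.6 counts per count of Actb in control and 9.17 and 10.5 after EDA-A2. For Acta1 against Acta2 the ratios were 11.8 and 9.07 in control and 5.61 and 6.72 after EDA-A2. In both pairs the treated libraries lay below the controls.

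For the tropomyosins the differences were smaller. Tpm1 had 1.38 and 1.20 counts per count of Tpm2 in control and 1.19 and 1.16 after EDA-A2, so control replicate 2 and EDA-A2 replicate 1 were nearly equal. Of the tropomyosin counts per kb, Tpm2 held 50.7% and 53.7% in control and 53.4% and 54.1% after EDA-A2, and Tpm1 held 36.6% and 33.7% in control and 33.4% and 33.0% after EDA-A2. The order of Tpm1 and Tpm2 turned round with the canonical lengths, where Tpm1 had 57.6% and 54.9% in control, so it depends on which transcripts are used. The 4 sarcomeric members together had 13.8 and 12.4 counts per count of the 3 cytoskeletal members in control and 9.70 and 10.8 after EDA-A2. That ratio pools Acta1 and Actc1, which fell, with Tpm1 and Tpm2, which did not pass the test, so it does not show a fall of the tropomyosins.

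Levels of the 10 genes were set in order in TPM, a unit that divides each count by exon length before scaling the library. Acta1 was first in every library, at 7425 and 7805 TPM in control and 5387 and 5854 TPM after EDA-A2. Actc1 (1948 and 2027 TPM in control) and Tpm2 (1972 and 2041 TPM) came next and did not differ beyond their spread in control, while after EDA-A2 Tpm2 (1984 and 2071 TPM) lay above Actc1 (1483 and 1557 TPM). Tpm1, Acta2 and Actb followed in every library, at 1209 to 1424, 759 to 1105 and 698 to 749 TPM. Actg1 and Tpm4 overlapped at 306.5 to 365 TPM, Tpm3 had 146 to 185 TPM, and Actg2 had 0.577 to 0.942 TPM. With canonical lengths Acta1 stayed first and Actg2 last, but Tpm1 moved to second place in every library, Actb passed Acta2 in control, and Tpm3 passed Actg1 in every library. All 10 members took 1.45% and 1.41% of the gene counts of the control libraries and 1.19% and 1.21% of those of the EDA-A2 libraries.

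In bulk RNA, fewer cells of a type and less RNA per cell cannot be told apart. Beside the lower striated actins, the summed myotube markers changed by -24.0% in the mean, a sum of which Myh3 (235226 normalized counts in control and 158140 after EDA-A2) was the largest part. All 7 log2 fold changes were negative, with a median of -0.25. Myh3 (-0.57) and Myh8 (-0.38) passed the test. Ckm (-0.36), Ttn (-0.25), Myog (-0.18), Des (-0.02) and Mymk (-0.01) did not. Fibroblast markers held 50581 and 52496 normalized counts in control and 47956 and 48763 after EDA-A2, with Lum and Thy1 at 0 in all 4 libraries. Most of that sum was Col3a1 (-0.04 on the log2 scale), Pdgfrb was the marker that fell (-0.45, adjusted p = 0.0126 by the edgeR test), and Col1a1 (-0.46) and Dcn (0.48) had opposite signs and did not pass. Dividing cell markers had 19378 and 23059 in control and 21187 and 21536 after EDA-A2, and myoblast markers 2587 and 2834 in control and 3024 and 3234 after EDA-A2. The higher myoblast sum was carried by Vcam1, which rose by 0.53 on the log2 scale and was the only one of the 3 to pass the test, while Pax7 (-0.17) and Myf5 (-0.24) had negative values and the median was -0.17. Endothelial markers summed to 26.8 to 32.3 normalized counts and macrophage markers to 58.7 to 88.2, with Adgre1 and Ptprc at 2 counts or fewer. The part of these shifts in the actin values was not tested.

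Beside Acta2, the 6 markers of smooth muscle cells and pericytes summed to 2491 and 2760 normalized counts in control and 2453 and 2574 after EDA-A2. The defining gene Myh11 had 5 counts in each library, and Myocd had 0 in both controls and 0 and 2 after EDA-A2. Lmod1 had means of 329.5 normalized counts in control and 302 after EDA-A2, and Notch3 of 2227 and 2153. The part of such cells in the counts of Acta2 was not tested.

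The gene lists, like the members, were chosen with earlier results of these data known. The genes that work with the sarcomeric members on the thin filament were looked at as a list of 22, all of which were tested. Of these 8 were called lower and 0 higher, beside 2.13% lower and 2.45% higher over all genes tested. Of the log2 fold changes 19 were negative, and the median was -0.29, beside -0.002 over all genes tested. By edgeR's quasi-likelihood test the smallest p-values belonged to Xirp1, Nrap and Tnni1. Xirp1, which encodes an actin-binding repeat protein of muscle attachment sites, fell from 3964 ± 674 to 2378 ± 180 normalized counts (SD, n = 2 each; log2 fold change -0.74). Nrap, a scaffold of early myofibrils, fell from 9427 ± 303 to 6606 ± 530, and Tnni1, the slow form of the inhibitory troponin subunit, from 60269 ± 3320 to 44791 ± 1299. 

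The other 5 that fell, named after their values were seen, were the actin nucleator Lmod2, the sarcomere-protecting Klhl40, and the troponin genes Tnnc2, Tnnt2 and Tnni2. Their log2 fold changes were -0.35, -0.38, -0.40, -0.30 and -0.31. Tnnt2 and Tnni2 were close to the threshold (adjusted p 0.0450 and 0.0484) and lost their calls under upper quartile factors (0.0558 and 0.0599), total counts (0.0968 and 0.105), a minimum of 10 counts in every library and protein-coding genes only, each of which left a count of 6. The count was 0 with no filter or without either control library, 7 without EDA-A2 replicate 1, 4 without EDA-A2 replicate 2, 9 in the DESeq2 Wald test and 11 with a replicate block.

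Regulators of cytoskeletal actin were 30 in number, and all were tested. The list held 3 called lower and 0 called higher, beside 2.13% lower and 2.45% higher over all genes tested. Its median was -0.02 on the log2 scale, with 17 negative values. Tmsb10 and Tmsb4x, the beta-thymosins that bind free actin monomers, fell from 48834 ± 763 to 39118 ± 255 and from 20149 ± 2270 to 15824 ± 549 normalized counts (SD, n = 2 each). Actn4, a crosslinker of nonmuscle actin filaments, fell from 13217 ± 285 to 10863 ± 294. The subunits of the Arp2/3 complex, which starts branched filaments, were in the 27 that did not pass. Under scaling to total counts Actn4 did not pass either (adjusted p 0.0693 in edgeR), which left 2 called lower. The count was 0 with no filter, without either control library and without EDA-A2 replicate 1, and 1 without EDA-A2 replicate 2.

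Genes that share the smooth muscle and myofibroblast programme with Acta2 went in different directions. Of 10, 8 were tested, with 1 called higher and 2 lower, beside 2.45% higher and 2.13% lower over all genes tested. The median log2 fold change was -0.09. Synpo2, which encodes an actin-binding protein that is also found at the Z-disc of striated muscle, rose from 4300 ± 225 to 8378 ± 192 normalized counts (SD, n = 2 each), or 0.96 on the log2 scale (standard error 0.07, adjusted p = 7.60e-07 by edgeR's quasi-likelihood test). It had 4459 and 4141 normalized counts in control and 8514 and 8243 after EDA-A2, and of the settings tried the call was lost only without control replicate 1 (adjusted p 0.208) or 2 (0.157). Myl9, a regulatory light chain of smooth and nonmuscle myosin, fell from 681 ± 80.5 to 480 ± 6.74, and Tagln, an actin-bundling protein, from 492 ± 52.9 to 364 ± 16.0. The count of 2 called lower was 1 under scaling to total counts, in the DESeq2 Wald test and without EDA-A2 replicate 1, and 0 with no filter or without any 1 of the other libraries.

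**Figure D5:**
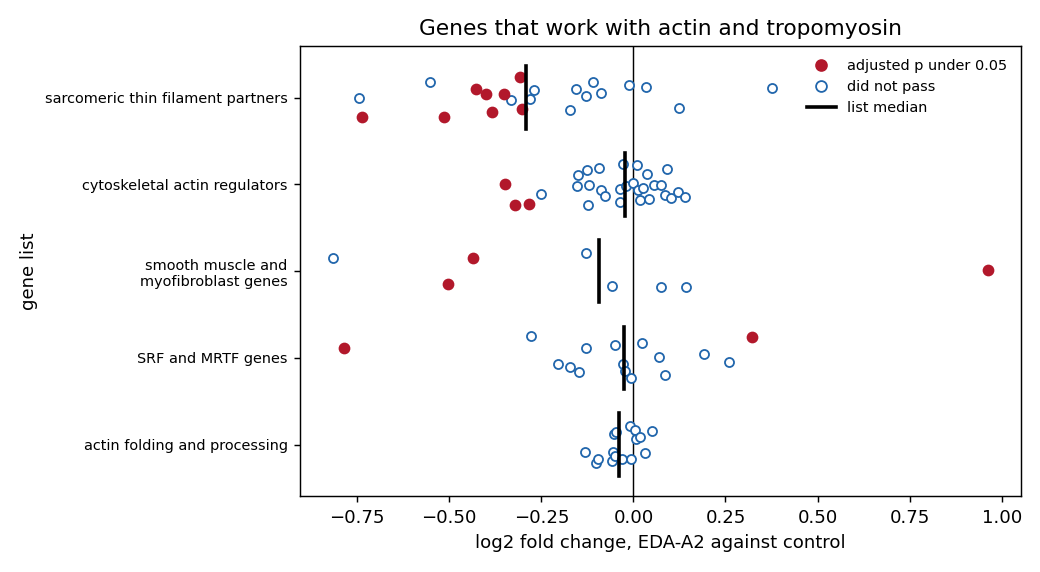
Log2 fold change of each tested gene in the 5 lists, filled where the adjusted p was under 0.05, with black bars at the list medians. Thin filament partners lie mostly left of 0 (median -0.29), while the other 4 medians lie between -0.09 and -0.02.

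Promoter sequences were examined because actin genes are textbook targets of the serum response factor SRF, which binds the CArG box, and of its coactivators of the MRTF family, which free actin monomers hold in the cytoplasm. RefSeq promoters, from 250 bases before to 50 after the annotated start, were at hand for 8 of the 10 members, 9 promoters in all. Actb and Actg2 had no promoter there, so theirs were not searched. An exact CArG box, CCWWWWWWGG with W for A or T, was present on either strand in 3 of them, those of Acta1, Actc1 and Actg1. It was in 1.63% of all 32851 promoters of the same length. Boxes that differ by 1 base, such as ccctatatgg in the promoters of Acta2 and Actc1, were not counted. The 250 bases before each start site are shown for these 3 genes, 1 pair that fell and 1 gene that did not pass the test, with the CArG box in capitals. The RefSeq table uses GRCm38.p6, and the positions given were found by exact match in GRCm39.
Acta1 (chr8:124621515-124621764, minus strand): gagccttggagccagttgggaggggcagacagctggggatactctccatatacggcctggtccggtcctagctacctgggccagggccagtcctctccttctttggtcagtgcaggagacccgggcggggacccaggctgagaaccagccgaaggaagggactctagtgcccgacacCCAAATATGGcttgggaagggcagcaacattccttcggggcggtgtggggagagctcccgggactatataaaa
Actc1 (chr2:113883357-113883606, minus strand): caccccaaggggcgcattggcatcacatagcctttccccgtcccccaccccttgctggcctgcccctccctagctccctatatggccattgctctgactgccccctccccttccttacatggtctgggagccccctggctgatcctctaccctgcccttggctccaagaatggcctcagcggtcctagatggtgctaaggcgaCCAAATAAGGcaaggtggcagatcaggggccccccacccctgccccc
Actg1 (chr11:120239322-120239571, minus strand): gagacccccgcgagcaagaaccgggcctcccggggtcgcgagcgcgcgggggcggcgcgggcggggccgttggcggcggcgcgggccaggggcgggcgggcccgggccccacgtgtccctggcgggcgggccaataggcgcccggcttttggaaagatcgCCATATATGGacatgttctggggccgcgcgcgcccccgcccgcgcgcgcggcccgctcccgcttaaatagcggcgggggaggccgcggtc

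The box lay 73 to 64 bases before the annotated start in Acta1, 47 to 38 bases before it in Actc1 and 90 to 81 bases before it in Actg1. The start used in these cultures was not measured, so all distances hold for the annotation only. The members with an exact CArG box in this window thus included both genes that fell and 1 whose conditions overlapped. The sequence TATAAA, searched on both strands, was in the promoters of Acta1 and Actc1 and in 13.6% of all promoters. It lay 7 to 2 bases before the annotated start in Acta1. In Actc1 it lay 33 to 38 bases after that start, beyond the bases shown. A κB site was matched in Actc1 alone, at 2 places, and in 5.80% of all promoters, and a MEF2 site in 0 of the 9, against 3.19% of all. These are matches of letters in a short window, not measured binding.

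Of 16 genes that encode SRF, its partners or other known targets, all were tested, and 1 was called higher and 1 lower. Over all genes tested, 2.45% were called higher and 2.13% lower, and counts of 1 among 16 genes are not read as a trait of the list. The median log2 fold change was -0.03. Fos fell from 399 ± 34.9 to 231 ± 37.7 normalized counts (SD, n = 2 each), and Egr1 rose from 727 ± 21.4 to 909 ± 3.78. Both are immediate early transcription factors. Fhl2, an LIM protein of muscle, had a log2 fold change of -0.28 (95% interval -0.44 to -0.11, adjusted p = 0.0525 by the edgeR test) and did not pass. Egr1 lost its call in the DESeq2 Wald test, with no filter and without any 1 of the libraries, and Fos with no filter or without either control library.

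New actin is folded by the CCT chaperonin with the prefoldin complex and then modified at its end and at a histidine. Of 16 genes for these steps 0 were called in either direction by edgeR, beside 4.57% of all genes tested. The DESeq2 Wald test called 0, and 0 had an unadjusted p-value under 0.05 in edgeR. The median log2 fold change was -0.04, and values ranged from -0.13 to 0.05. The 3 genes with the smallest p-values were Pfdn6 (log2 fold change -0.13, 95% interval -0.32 to 0.05), Pfdn1 (-0.10, -0.26 to 0.05) and Cct6a (-0.10, -0.26 to 0.07).

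The genes whose pattern over the 4 libraries lay nearest to that of Acta1, among 4234 protein-coding genes with a mean of at least 50 CPM, were Tmem119, Usp29 and Prss23. Their root mean square distances from Acta1, on log2 CPM centred per gene, were 0.01, 0.03 and 0.03. Nearest to Actb were Mlf2, Hmgn1 and Golgb1, each at a distance of 0.01. With 4 points per gene this is a description of likeness only.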

How the data were processed

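Polyadenylated RNA of 4 myotube libraries was sequenced as stranded read pairs. According to the submitters' processing notes the tools were FastQC 0.11.9, MultiQC 1.12, Trim Galore 0.6.5, STAR 2.7.3a and HTSeq 0.11.1 with the GRCm39 genome. The authors deposited raw counts in whole numbers for each Ensembl gene, in a separate table for every library. The annotation release and strand option are not given in the sources used here, so counts of genes with an antisense partner are uncertain. HTSeq's lines for uncounted pairs entered neither the library sizes nor the tests, where 6.68% to 7.40% of pairs had no feature, 0.946% to 0.986% were ambiguous and 4.56% to 4.76% did not map uniquely.

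From the deposited counts, edgeR 4.0.16 in R 4.3.3 (TMM factors of 0.972 to 1.026, filterByExpr with a minimum count of 10 and total of 15, glmQLFit, glmQLFTest) was fitted to all genes with condition as the only term, and p-values were adjusted by Benjamini-Hochberg over the 15173 genes tested, with a threshold of 0.05. Intervals are the log2 fold change and its standard error with edgeR's t quantile. Alternatives were other scalings and filters, the DESeq2 1.42.0 Wald test, protein-coding genes only, a replicate block and leaving out each library. Steps were tested on simulated data.

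GENCODE M39 matched 52610 of 53647 genes and gave names, lengths and coding sequences, aligned with Biopython 1.88. TPM used the union of all annotated exons. The members and gene lists were chosen with earlier results of these data known. Named genes are the members, the 3 genes of each list with the smallest p, and the 3 nearest in pattern to Acta1 and Actb. Cell type markers, and 5 further thin filament genes chosen after their values were seen, are named beside them.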

Additional observations from a re-analysis of the deposited data

How the results depend on the processing

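Over 12 other settings and the 9 tested members, 98 of 108 combinations kept the direction and side of the threshold, 6 lost a call (Acta1 and Actc1, as given above), 2 gained one (Tpm3) and 2 changed sign. The sign changes were those of Actg1, whose log2 fold change with 1 library left out ranged from -0.051 to 0.080, negative when control replicate 1 (-0.042) or EDA-A2 replicate 1 (-0.051) was absent. The causes were not tested. Fits without either control library called 0 genes of all, and those without EDA-A2 replicate 1 or 2 called 238 and 207 higher and 164 and 170 lower.

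With no filter, 0 members, 0 thin filament partners, 0 cytoskeletal regulators, 0 smooth muscle genes and 0 SRF genes were called lower, and 0 SRF genes higher. Scaling to total counts moved the median of all genes by 0.05. Under it 6 thin filament partners, 2 cytoskeletal regulators and 1 smooth muscle gene were called lower and 2 SRF genes higher. The DESeq2 Wald test called 1 smooth muscle gene lower and 0 SRF genes higher. With each library left out in turn, genes called lower numbered 0 to 2 among members, 0 to 7 among thin filament partners, 0 to 1 among cytoskeletal regulators, 0 to 1 among smooth muscle genes and 0 to 1 among SRF genes, and genes called higher numbered 0 to 1 among smooth muscle genes and 0 among SRF genes.

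The share of striated actin in control, 83.5% per kb of all exons, was 87.2% without length, 88.0% per kb of the longest transcript and 88.9% per kb of the canonical transcript, the last chosen after seeing the data.

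Replicate numbers are not said to mark shared cultures. The differences between replicates 1 and 2 correlated at 0.11 between the conditions over 13126 genes, and with 2 pairs this does not show pairing. A replicate block gave 537 genes higher and 529 lower over all genes, against 371 and 323 without it, called 2 SRF genes lower, and left Acta1 and Actc1 called. With 2 libraries per condition the median standard error over all genes was 0.10 on the log2 scale, which limits the small differences that could pass.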
